A study of Rattus norvegicus with 16 samples.

Results

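The left ventricle of the rat was examined 2 weeks after 5/6 nephrectomy (5/6Nx), a rat model of chronic kidney disease in which little functioning kidney is left behind, and was compared with the left ventricle 2 weeks after sham surgery. Of 22861 loci in the week 2 table, the authors tested 14115. The 13404 tested loci with an abundance of at least 1 in either group are described here, and 10384 of them carried a gene symbol. The loci were chosen by this abundance. A locus under 1 in 1 group could therefore enter only through the other group, where it was higher.

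Both groups were male Sprague Dawley rats from Harlan that were delivered at 9 weeks of age, ate a 0.4% chow from Dyets and had surgery at 10 weeks. The 5/6Nx group at week 2 held 2 libraries of stranded total RNA, and so did the sham group at week 2. Each library was made from the pooled left ventricles of 2 to 3 rats. The same design was repeated at weeks 4, 5 and 7, each with its own sham group, which gave 16 libraries in all. The labels name no transgene, drug or further treatment in either group.

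Loss of kidney function raises blood pressure, retains salt and water and leaves uremic solutes and hormones in the circulation, and the left ventricle is known to respond with hypertrophy of cardiomyocytes and with interstitial fibrosis. In fibrosis, fibroblasts secrete collagens and elastic fibre proteins, lysyl oxidases crosslink them, and matrix metalloproteinases and their inhibitors (TIMPs) set their turnover. Macrophages and neutrophils enter injured heart muscle, and wall stress induces the natriuretic peptides.

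Abundances are FPKM, which count fragments relative to transcript length and library depth, a unit inferred from the tool named by the submitters and not written in the file. The authors' deposited table holds 1 FPKM value per group and locus, so the level in a single library cannot be given. Log2 fold changes are 5/6Nx over sham. The standard error (SE) beside each was derived from the deposited two-sided p, and where that p was at its floor of 5e-05 the SE is an upper bound. The SE measures the spread between pools as Cuffdiff, the authors' test, modelled it, not the spread between animals. The 5/6Nx libraries held 48.3 and 56.1 M reads (M, mega), and the sham libraries 50.7 and 56.1 M, of which 94.3% and 94.3% were mapped in 5/6Nx and 94.0% and 94.3% in sham. The tissue carried the marks of the ventricle. Myl2, the ventricular myosin light chain, had 27722 FPKM in 5/6Nx and 33367 FPKM in sham, against 375 and 468 FPKM for Myl7, its atrial counterpart.

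The genes farthest from sham at week 2 included Reg3b and the low transcript Reg1a, of a cluster of secreted C-type lectins, above it and the calprotectin pair below it. Reg3g, of the same cluster, was nearer to sham at 0.63 ± 0.22. The bases in front of the starts of these genes are shown here because the neighbours lay on the same side of sham. Reg1a reached the minimum of 1 FPKM only in 5/6Nx, which favoured that side for it. S100a8 is named only. Reg3b, Reg1a and Reg3g encode lectins of the regenerating family, of which Reg3b and Reg3g kill bacteria in the gut and Reg3b recruits macrophages to the injured mouse heart. They lie within 60.8 kb on chromosome 4 (174173098 to 174233865, rn5). S100a8 and S100a9 encode the subunits of calprotectin, a calcium- and zinc-binding complex abundant in neutrophils, and lie within 26.5 kb on chromosome 2 (209507569 to 209534093, rn5). The 250 bases before each start come from RefSeq on the build GRCr8, 5′ to 3′ on the strand of the gene, for Reg3b (chr4:112419526-112419775, plus strand), Reg3g (chr4:112484739-112484988, minus strand), Reg1a (chr4:112450216-112450465, plus strand) and S100a9 (chr2:178490623-178490872, minus strand). Capitals mark matches on either strand to TTCNNNGAA (bound by STAT factors), TTGCNNAA (C/EBP), TGANTCA (AP-1) or TATAAA (the TATA box).
Reg3b: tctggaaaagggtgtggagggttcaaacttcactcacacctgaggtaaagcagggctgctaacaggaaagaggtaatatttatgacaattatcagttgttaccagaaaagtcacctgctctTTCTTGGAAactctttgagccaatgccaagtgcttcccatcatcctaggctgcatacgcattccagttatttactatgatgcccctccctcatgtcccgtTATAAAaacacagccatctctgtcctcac
Reg3g: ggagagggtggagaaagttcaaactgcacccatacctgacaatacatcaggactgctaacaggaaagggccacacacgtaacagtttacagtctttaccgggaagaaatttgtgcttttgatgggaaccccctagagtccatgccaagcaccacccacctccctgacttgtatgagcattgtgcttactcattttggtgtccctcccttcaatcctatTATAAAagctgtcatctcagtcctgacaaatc
Reg1a: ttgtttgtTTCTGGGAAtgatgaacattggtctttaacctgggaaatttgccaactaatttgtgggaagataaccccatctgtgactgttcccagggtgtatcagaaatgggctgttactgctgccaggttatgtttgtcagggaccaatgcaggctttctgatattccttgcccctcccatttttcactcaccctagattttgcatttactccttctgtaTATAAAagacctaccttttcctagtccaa
S100a9: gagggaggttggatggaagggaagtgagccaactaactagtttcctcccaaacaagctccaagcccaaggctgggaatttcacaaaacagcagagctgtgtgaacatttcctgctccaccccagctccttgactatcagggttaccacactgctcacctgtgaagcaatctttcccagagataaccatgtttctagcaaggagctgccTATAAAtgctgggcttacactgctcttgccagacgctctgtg
The STAT motif occurred in 7.52% of the 27457 promoters of this length in the RefSeq table, the C/EBP motif in 9.20%, the AP-1 motif in 6.36% and the TATA motif in 13.1%. All 4 promoters held a TATA motif, which began 29 bases before the start in Reg3b and Reg1a, 32 in Reg3g and 42 in S100a9. A STAT motif was found in Reg3b, 129 bases before the start, and in Reg1a, 242 bases before it. These matches describe the letters of the windows only.

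The question at week 2 was which genes already differed when the rats had lived for 2 weeks with little kidney tissue. By the authors' threshold, a q-value under 0.05, the answer was 0 of 14115 tested loci (0% called). In the authors' deposited table no q lay under 0.0504, the value of the 14 loci at the smallest p of 5e-05. When the p-values were adjusted over the 13404 loci described here, these 14 passed with an adjusted p of 0.0479 (0.104% called). Without adjustment, 367 loci (2.74%) had a p under 0.05, 249 above sham (1.86%) and 118 below (0.880%). Evenly spread p-values would put a share of 0.05 under that threshold, so the count is lower than no difference at all would give. The deposited p leaned towards the high end, with 1032 loci (7.70%) from 0.95 to 1. Values are therefore given as lying above or below sham.

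Most of the transcriptome lay close to sham. Of the 13404 loci, 5999 (44.8%) lay above sham and 7404 (55.2%) below. The median log2 fold change was -0.02, the middle 50% ran from -0.13 to 0.10 and the central 90% from -0.38 to 0.42, beside a median SE of 0.23. At least 1.5-fold differences were seen at 345 loci above and 287 below sham, and at least 2-fold differences at 93 and 95. Among the 188 loci with a 2-fold difference, 71 had a p under 0.05 in the authors' deposited table, and 88 of the other 117 had no symbol. The scatter narrowed with level, from an SD of 0.43 among the 4322 loci whose higher group value was 1 to 5 FPKM to 0.19 among the 3142 loci of 20 to 100 FPKM, and was 0.21 among the 957 loci of at least 100 FPKM. Just inside the minimum, 1 unnamed locus had 1.00 FPKM in 5/6Nx and 0.695 FPKM in sham, and just outside it Nlrp3 had 0.997 FPKM in 5/6Nx and 0.999 FPKM in sham.

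**Figure D1:**
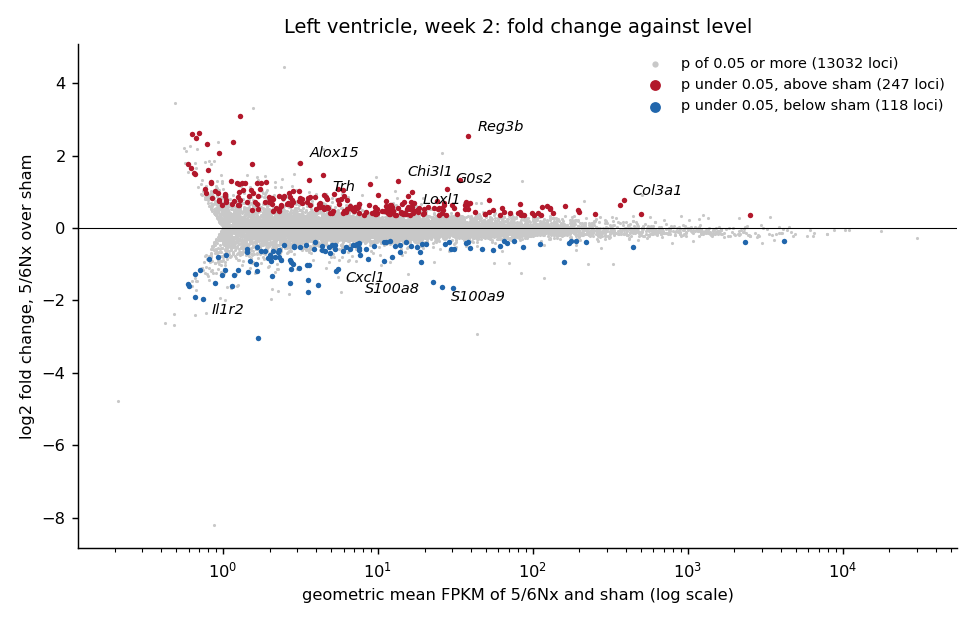
Log2 fold change (5/6Nx over sham) against the geometric mean FPKM of both groups, on a log scale, for the 13397 loci with a value above 0 in both groups at week 2. Red and blue points have a deposited p under 0.05 above (247 loci) and below sham (118 loci), and some genes of the text are labelled, among them Reg3b at 2.53 and Il1r2 at -1.97.

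Among the 14 loci at the smallest p, 11 lay above sham and 3 below. Reg3b (chromosome 4, 174173098 to 174176337) had 92.2 FPKM in 5/6Nx and 15.9 FPKM in sham, a log2 fold change of 2.53 ± 0.62. Alox15, the lipoxygenase that oxidises arachidonic and linoleic acid, had 5.91 FPKM in 5/6Nx and 1.69 FPKM in sham (1.80 ± 0.44). Reg3b was thus both abundant and far from sham, whereas Alox15 was a low transcript. Trh, which encodes thyrotropin-releasing hormone, had 7.38 FPKM in 5/6Nx and 2.67 FPKM in sham (1.47 ± 0.36). Chi3l1, a chitinase-like protein secreted by macrophages and other cells, had 21.1 FPKM in 5/6Nx and 8.64 FPKM in sham (1.29 ± 0.32), and its locus overlapped 1 other locus. G0s2, an inhibitor of the lipase that starts triglyceride breakdown, had 40.5 FPKM in 5/6Nx and 19.1 FPKM in sham (1.08 ± 0.27). These 3 genes stood 2- to 3-fold above sham, the same order of distance as Loxl1 in the matrix. Rims1, a scaffold of secretory vesicle release sites, had 1.54 FPKM in 5/6Nx and 0.256 FPKM in sham (2.59 ± 0.64). It reached the minimum of 1 FPKM only in 5/6Nx, which favoured a place above sham. Also above sham were Loxl1 and Col3a1, described with the matrix, and 2 loci without a symbol, of which 1 was listed at 0 in sham and 1.03 FPKM in 5/6Nx. Below sham were S100a9, described with the neutrophil genes, and 2 loci without a symbol. These were XLOC_019689 on chromosome 7 (124747480 to 124839267), with 2.37 FPKM in 5/6Nx and 7.12 FPKM in sham (-1.58 ± 0.39), and XLOC_006702 on chromosome 13 (86863011 to 86886621), with 1.98 FPKM in 5/6Nx and 3.67 FPKM in sham (-0.89 ± 0.22).

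Among the named loci with a p under 0.05, others with large fold changes were low transcripts. Tgm1, a transglutaminase that crosslinks proteins of the epidermal envelope, had 1.94 FPKM in 5/6Nx and 0.459 FPKM in sham (2.08 ± 0.53). LOC500035 stood at 2.62 ± 1.22, Mxd3, a partner of the MYC cofactor MAX, at 1.66 ± 0.81 and Arsi, a sulfatase, at 1.52 ± 0.49, each at or below 1.72 FPKM. Below sham, Slc47a1, an exporter of organic cations known from the kidney, had 0.749 FPKM in 5/6Nx and 1.86 FPKM in sham (-1.31 ± 0.40). RGD1565374, Eddm3b and Ampd1, the AMP deaminase of skeletal muscle, stood at -1.90 ± 0.72, -1.56 ± 0.73 and -1.15 ± 0.47, each at or below 1.27 FPKM. All genes of this paragraph reached the minimum only in the group where they were higher.

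The neighbours of Reg3b lay on the same side. Reg3g had 33.2 FPKM in 5/6Nx and 21.4 FPKM in sham (0.63 ± 0.22), and Reg1a had 1.75 FPKM in 5/6Nx and 0.351 FPKM in sham (2.32 ± 1.01). Reg1a reached the minimum of 1 FPKM only in 5/6Nx, so the minimum itself favoured a place above sham for it. Reg3a was not tested by the authors, with 0.105 FPKM in 5/6Nx and a listed 0 in sham. In cell culture and in mouse heart, Reg3b is induced by the interleukin-6 family through STAT3. Of the 14 measured genes of that family and of the acute phase, 7 lay above sham and 3 of those had a p under 0.05 (Reg3b, Timp1 and Reg3g), with a list median of 0.00. The receptor subunits Il6st, Osmr and Lifr stood at -0.01, -0.05 and -0.07, Stat3 at -0.00 and its feedback target Socs3 at 0.08. Hp, which encodes the haemoglobin scavenger haptoglobin, was below sham at 0.686 FPKM in 5/6Nx and 1.52 FPKM in sham (-1.15 ± 0.53). It reached the minimum only in sham, which favoured a place below sham.

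**Figure D2:**
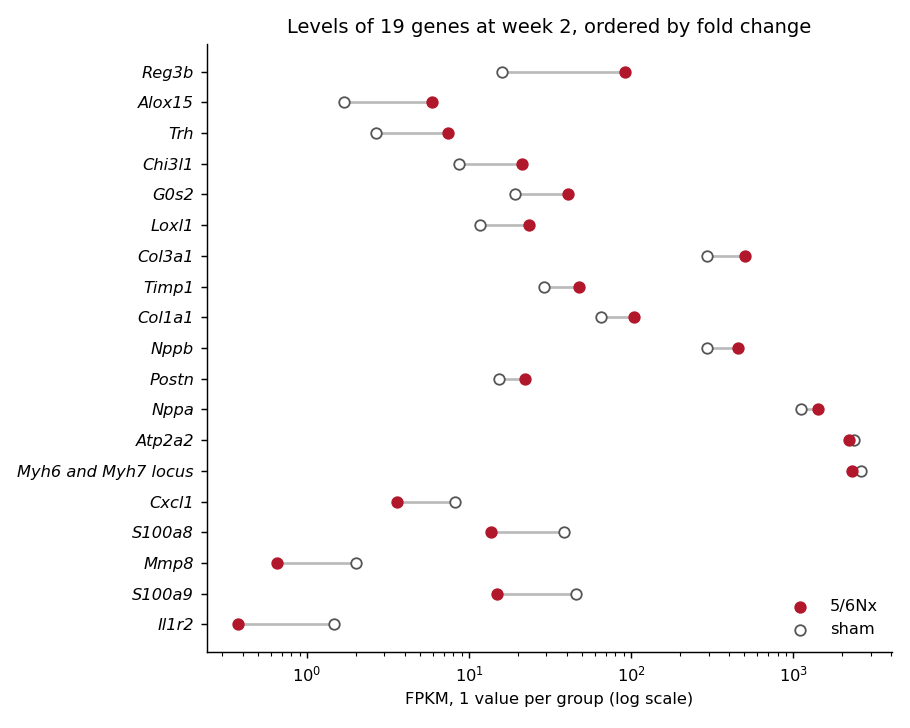
FPKM of 19 genes in 5/6Nx (filled) and sham (open) at week 2 on a log scale, 1 deposited value per group, ordered by fold change. Reg3b shows the widest gap above sham and Il1r2 the widest below, while Nppa and the locus shared by Myh6 and Myh7 lie close to their sham values.

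Most matrix genes lay above sham. Over 5 lists (fibrillar collagens, other collagens, elastic fibres, collagen processing and matricellular proteins), 49 of 52 measured genes lay above sham, 21 with a p under 0.05, and none of the 3 below had one. Their median was 0.33, beside -0.02 over all 13404 loci, of which 1.86% were above sham with such a p. The background for counts above sham in every list below is 44.8% of all loci, and 1.86% with such a p. Their summed level was 3574 FPKM in 5/6Nx and 2779 FPKM in sham.

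All 5 measured fibrillar collagen genes, which form the load-bearing fibres of the interstitium, lay above sham, 4 with a p under 0.05. Col3a1 (chromosome 9, 51689491 to 51725418), the chain of type III collagen, had 504 FPKM in 5/6Nx and 296 FPKM in sham (0.77 ± 0.19). Col1a1 (chromosome 10, 82563433 to 82580364), a chain of type I collagen, had 104 FPKM in 5/6Nx and 65.6 FPKM in sham (0.66 ± 0.17). The type V chains, which set fibre diameter, were closer to sham at 0.55 ± 0.21 for Col5a3, 0.54 ± 0.19 for Col5a1 and 0.33 ± 0.17 for Col5a2. Col1a2 was listed with 0 FPKM in 5/6Nx and 0.00850 FPKM in sham and was not tested. All 6 other collagens with a value also lay above sham, 5 with a p under 0.05 and a median of 0.39. Col8a1, a short-chain collagen of vessels and remodelled matrix, led them with 21.2 FPKM in 5/6Nx and 12.8 FPKM in sham (0.73 ± 0.20). The more abundant of 2 loci of Col4a1, a chain of the basement membrane, had 156 FPKM in 5/6Nx and 116 FPKM in sham (0.43 ± 0.19).

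Enzymes that modify collagen lay above sham in 16 of 17 cases, 4 of them with a p under 0.05. Loxl1, a lysyl oxidase that crosslinks elastin and collagen, had 23.3 FPKM in 5/6Nx and 11.7 FPKM in sham (1.00 ± 0.25). The family was spread, with Lox at 0.25, Loxl3 at 0.41, Loxl4 at 0.04 and the 2 loci of Loxl2 at 0.42 ± 0.23 and -0.09 ± 0.37, of which the second, with the higher level, is counted. Plod2, the lysyl hydroxylase of collagen telopeptides, had 13.8 FPKM in 5/6Nx and 9.49 FPKM in sham (0.54 ± 0.18). Serpinh1, the collagen chaperone HSP47, had 229 FPKM in 5/6Nx and 170.3 FPKM in sham (0.43 ± 0.18). Elastic fibre genes lay above sham in 11 of 12 cases. Eln, which encodes elastin, the substrate of Loxl1, had 49.5 FPKM in 5/6Nx and 30.8 FPKM in sham (0.69 ± 0.18). The microfibril genes Mfap5 and Ltbp2 stood at 0.56 ± 0.19 and 0.48 ± 0.19, while Efemp1 and Mfap2, whose locus also holds Atp13a2, stood at -0.01 and 0.02. Fbn1 failed the authors' test and was left out, with a listed 0 FPKM in 5/6Nx and 19.9 FPKM in sham.

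Matricellular proteins, which signal from the matrix to cells, lay above sham in 11 of 12 cases, 5 with a p under 0.05. Spp1, which encodes osteopontin, had 21.7 FPKM in 5/6Nx and 13.4 FPKM in sham (0.69 ± 0.21). Cilp stood at 0.57 ± 0.20, Postn (periostin) at 0.54 ± 0.18, Fn1 (fibronectin) at 0.52 ± 0.17 and Ctgf, a connective tissue growth factor, at 0.44 ± 0.17. Thbs1, an activator of latent TGF-beta, was the 1 gene of the list below sham, with 24.4 FPKM in 5/6Nx and 30.1 FPKM in sham (-0.30 ± 0.18). Among small proteoglycans, 4 of 6 lay above sham, and Dcn, the most abundant, had 1031 FPKM in 5/6Nx and 1037 FPKM in sham. Of the matrix proteases and their inhibitors, 11 of 16 lay above sham. Timp1, an inhibitor of metalloproteinases, had 47.8 FPKM in 5/6Nx and 28.9 FPKM in sham (0.73 ± 0.21). Its relatives did not share that distance, with Timp2 at 0.19, Timp3 at -0.01 and Timp4 at -0.18. The proteases Mmp14 and Mmp2 stood at 0.43 ± 0.20 and 0.40 ± 0.17, and Mmp8, the collagenase of neutrophils, at -1.61 ± 0.50.

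The TGF-beta family list holds ligands (TGF-betas, BMPs, an activin chain and Gdf15), receptors and Smads, and TGF-beta itself is a known inducer of matrix genes in fibroblasts. Of 16 measured genes, 11 lay above sham with a median of 0.13, and 0 had a p under 0.05 in either direction. Among the ligands, Gdf15 stood at 0.47 ± 0.40, Tgfb2 at 0.33 ± 0.21, Tgfb3 at 0.22 and Tgfb1 at 0.19, and Bmp2 at -0.37 ± 0.48. Among the receptors, Tgfbr2 stood at 0.10 and Tgfbr1 at -0.20. Markers of fibroblasts lay above sham in 9 of 13 cases with a median of 0.24, and their summed level was 3119.6 FPKM in 5/6Nx and 3072 FPKM in sham. The 4 with a p under 0.05 were Thy1 (0.92 ± 0.30), Col1a1, Mfap5 and Postn, of which 3 are matrix genes counted above. Thy1, a surface glycoprotein, was the farthest from sham in the list, while the receptors Pdgfra and Ddr2 stood at 0.24 ± 0.17 and -0.01 ± 0.17 and the transcription factor Tcf21 at -0.19 ± 0.20. In tissue of mixed cells, more cells of a type and more RNA per cell cannot be told apart, and the part of fibroblast number in the matrix values was not tested.

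**Figure D3:**
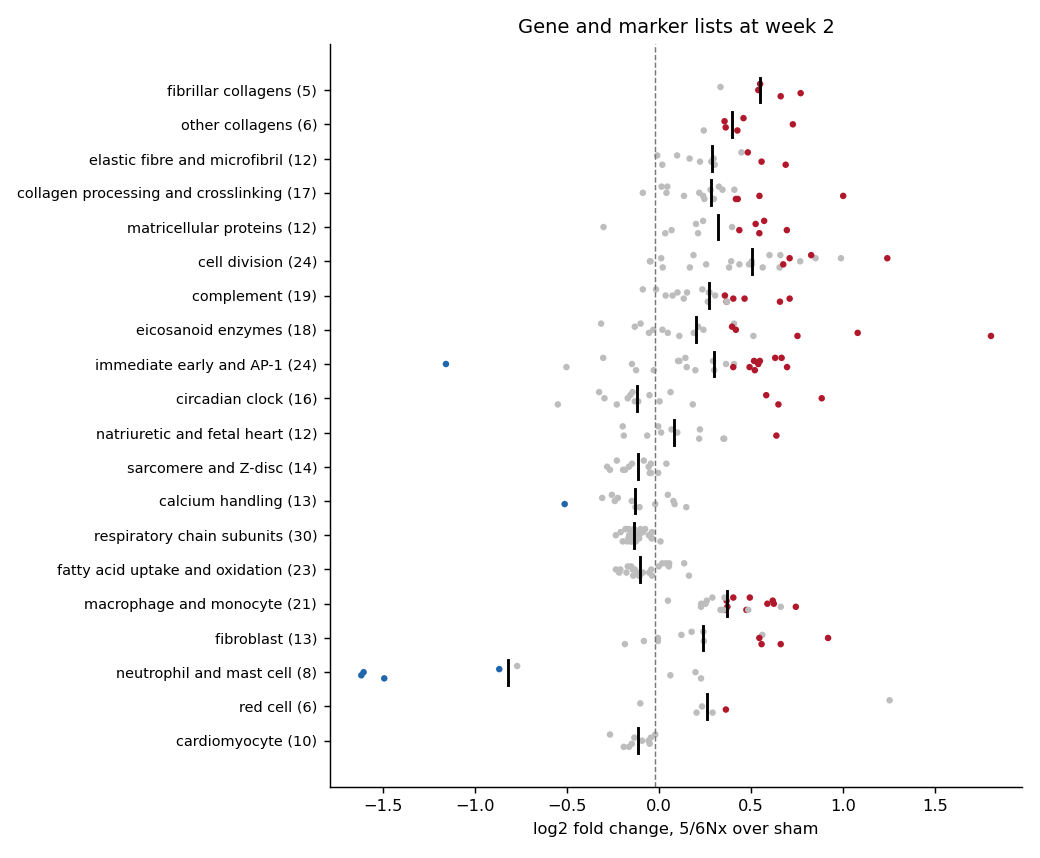
Log2 fold change (5/6Nx over sham) at week 2 of each measured gene in 20 gene and marker lists, with the number of genes in parentheses, list medians as black bars and the median of all loci (-0.02) as a dashed line. Red and blue points have a deposited p under 0.05 above and below sham, as in 10 of 21 macrophage genes and 4 of 8 neutrophil and mast cell genes.

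Macrophage and monocyte markers all lay above sham. This held for 21 of 21 measured genes, 10 with a p under 0.05, with a median of 0.37 and a range of 0.05 to 0.74, beside 44.8% of all loci above sham and 1.86% above it with such a p. Their summed level was 903 FPKM in 5/6Nx and 689.9 FPKM in sham, and no measured marker was at 0. Cd14, the co-receptor for bacterial lipopolysaccharide, had 14.5 FPKM in 5/6Nx and 8.68 FPKM in sham (0.74 ± 0.23). Emr1, which encodes the macrophage antigen F4/80, had 8.15 FPKM in 5/6Nx and 5.31 FPKM in sham (0.62 ± 0.23). Lyz2, a lysozyme and the most abundant marker, had 233 FPKM in 5/6Nx and 165 FPKM in sham (0.49 ± 0.17). Cd163 and Mrc1, scavenger and mannose receptors of resident macrophages, stood at 0.37 and 0.33, and the more abundant of 2 loci of Csf1r, the receptor of the macrophage growth factor, at 0.25. Genes of antigen presentation on MHC class II did not share this side, with 1 of 6 above sham and a median of -0.08. Lymphocyte markers lay above sham in 2 of 7 cases, with a summed level of 46.4 FPKM in 5/6Nx and 45.0 FPKM in sham.

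Of all loci, 44.8% lay above sham, and 1.86% did so with a p under 0.05. Complement genes, many of which macrophages and fibroblasts make, lay above sham in 17 of 19 cases, 6 with a p under 0.05. Of these 6, C1qa, C1qb and C1qc also belong to the macrophage list. C3, the convergence point of the cascade, had 1.81 FPKM in 5/6Nx and 1.11 FPKM in sham (0.71 ± 0.28). C6, a part of the membrane attack complex, stood at 0.66 ± 0.28 and Cfb, of the alternative pathway, at 0.46 ± 0.20. Enzymes of eicosanoid synthesis lay above sham in 13 of 18 cases, 5 with a p under 0.05. Besides Alox15 these were Ltc4s, the leukotriene C4 synthase, with 8.02 FPKM in 5/6Nx and 3.80 FPKM in sham (1.08 ± 0.42), Ptgds, a prostaglandin D synthase (0.75 ± 0.23), Ephx2, a hydrolase of epoxy fatty acids (0.42), and the secreted phospholipase Pla2g2a (0.40 ± 0.18). The cyclooxygenases Ptgs1 and Ptgs2 stood at -0.13 and 0.41, and Alox5 at 0.05. Interferon-stimulated genes were divided, with 10 of 22 above sham, a median of -0.02 and 0 with a p under 0.05 in either direction.

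Genes of neutrophils lay below sham. In the neutrophil and mast cell list, 5 of 8 measured genes lay below sham, 4 of them with a p under 0.05, beside 0.880% of all loci. The 5 are expressed by neutrophils and the 3 above sham (Cpa3, Tpsb2 and Kit, at 0.23, 0.20 and 0.06) by mast cells. S100a9 (chromosome 2, 209531411 to 209534093) had 14.8 FPKM in 5/6Nx and 45.5 FPKM in sham (-1.62 ± 0.40). S100a8, its partner, had 13.6 FPKM in 5/6Nx and 38.3 FPKM in sham (-1.49 ± 0.39). Both subunits of calprotectin thus stood at about the same distance from sham and at similar levels within each group. Mmp8 had 0.653 FPKM in 5/6Nx and 1.99 FPKM in sham (-1.61 ± 0.50). The granulocyte receptors Csf3r and Cxcr2 stood at -0.87 ± 0.38 and -0.77 ± 0.49, each at or below 1.29 FPKM. Il1r2, a decoy receptor for interleukin-1 carried by neutrophils, had 0.374 FPKM in 5/6Nx and 1.46 FPKM in sham (-1.97 ± 0.68). Mmp8, Csf3r, Cxcr2 and Il1r2 reached the minimum of 1 FPKM only in sham, so the minimum itself favoured a place below sham for them. S100a8 and S100a9 passed it in both groups. Mpo and Np4, both granule genes of neutrophil precursors, were listed at 0 in both groups. The summed level of the 5 neutrophil genes was 30.4 FPKM in 5/6Nx and 88.2 FPKM in sham, and with a single value per group it cannot be said whether 1 sham pool carried the excess.

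Chemokines and cytokines split around 0, with 13 of 23 above sham and a median of 0.05. Cxcl1, a chemokine that draws neutrophils through Cxcr2, had 3.57 FPKM in 5/6Nx and 8.17 FPKM in sham (-1.19 ± 0.35), and Cxcl2 and Il1b stood at -0.88 and -0.63 without a p under 0.05. Cxcl12, made by stromal cells to retain leukocytes and progenitors, had 139 FPKM in 5/6Nx and 93.4 FPKM in sham (0.58 ± 0.19). The monocyte chemokine Ccl2 had 17.1 FPKM in 5/6Nx and 17.3 FPKM in sham. Genes of endothelial adhesion lay above sham in 7 of 9 cases with 0 past a p of 0.05, among them Icam1 at 0.33 ± 0.22 and Sele at 0.35 ± 0.30. Red cell genes lay above sham in 5 of 6 cases, with a summed level of 7145 FPKM in 5/6Nx and 5754 FPKM in sham, and the part of blood left in the tissue in the leukocyte values was not tested.

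Genes of cell division lay above sham in 22 of 24 cases, 4 with a p under 0.05, at a median of 0.50. The shares over all loci were 44.8% above sham and 1.86% above it with such a p. Cdkn3, a phosphatase of cyclin-dependent kinases, had 2.69 FPKM in 5/6Nx and 1.14 FPKM in sham (1.24 ± 0.48). Prc1, which bundles the central spindle, stood at 0.83 ± 0.28, Racgap1, of cytokinesis, at 0.71 ± 0.33 and Top2a, the topoisomerase of dividing cells, at 0.67 ± 0.26. The 3 genes of the same list with at least 5 FPKM in either group had a median of -0.047, so the median above 0 rested on the low members. Pcna and Mcm6, which also serve DNA repair and replication licensing, stood at 0.01 and -0.05, and the locus of Mcm6 also holds Dars.

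Immediate early genes, which are transcribed within minutes of a stimulus, lay above sham in 18 of 24 cases, 9 with a p under 0.05, at a median of 0.30. The shares over all loci were 44.8% above sham and 1.86% above it with such a p. Junb, a subunit of AP-1, had 48.3 FPKM in 5/6Nx and 30.5 FPKM in sham (0.67 ± 0.18). Ier3 and Ier2 stood at 0.63 ± 0.21 and 0.52 ± 0.18, and Cebpb, a transcription factor of acute phase and growth responses, had 16.2 FPKM in 5/6Nx and 11.2 FPKM in sham (0.54 ± 0.20). The nuclear receptors of the Nr4a family lay below sham. Nr4a3 had 0.841 FPKM in 5/6Nx and 1.88 FPKM in sham (-1.16 ± 0.31), and Nr4a2 and Nr4a1 stood at -0.50 and -0.13. Nr4a3 reached the minimum of 1 FPKM only in sham, which favoured a place below sham. In the circadian clock, the 3 genes with a p under 0.05 lay above sham, while 10 of all 16 lay below it and the median was -0.12. Npas2 and Arntl, partners in the activating arm, stood at 0.88 ± 0.27 and 0.65 ± 0.25, and Nfil3, a repressor, at 0.58 ± 0.26. Of the genes they drive, Per2, Tef and Dbp stood at -0.33, -0.30 and -0.11. The sources used here do not give the hour at which tissue was taken, and its part in the clock and immediate early values was not tested.

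Genes of contraction and energy supply lay slightly below sham as a body, without single genes standing out. Over the sarcomere, calcium handling, fatty acid oxidation and respiratory chain lists, 68 of 80 genes lay below sham at a median of -0.12, and 1 had a p under 0.05. The sum of these 80 was 138593 FPKM in 5/6Nx and 153193 FPKM in sham. Of all loci 55.2% lay below sham, and the loci of at least 100 FPKM had a median of -0.07. Cytosolic ribosomal protein genes lay on the same side, with 21 of 26 below sham at a median of -0.08. Cardiomyocyte markers lay below sham in 10 of 10 cases at a median of -0.11, with 0 past a p of 0.05. Markers of smooth muscle and pericytes lay above sham in 10 of 12 cases (median 0.13), and those of endothelium in 8 of 10 (median 0.04). The part of cell type shares in these values was not tested. Of 30 subunits of the respiratory chain 29 lay below sham, over a range of -0.24 to 0.01, with 0 past a p of 0.05. Cox4i1, a subunit of cytochrome oxidase, had 2656 FPKM in 5/6Nx and 3127 FPKM in sham (-0.24 ± 0.18). The locus shared by Myh6 and Myh7, the myosin heavy chains of the heart, had 2301 FPKM in 5/6Nx and 2629 FPKM in sham (-0.19 ± 0.22), and the deposited locus does not separate the 2 isoforms. Atp2a2, the calcium pump of the sarcoplasmic reticulum, had 2193 FPKM in 5/6Nx and 2362 FPKM in sham (-0.11 ± 0.22). Sln, which encodes the pump inhibitor sarcolipin and is mainly atrial, had 72.3 FPKM in 5/6Nx and 103 FPKM in sham (-0.51 ± 0.23), and Myl7 stood at -0.32 ± 0.17. The atrial, valve and conduction list lay above sham in 6 of 13 cases, with a sum of 2098 FPKM in 5/6Nx and 1936 FPKM in sham that consists mostly of Nppa.

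Of the genes of cardiac wall stress, the natriuretic peptides stood above sham. Nppb, which encodes brain natriuretic peptide, had 454 FPKM in 5/6Nx and 292 FPKM in sham (0.64 ± 0.18). Nppa, which encodes atrial natriuretic peptide, had 1420.1 FPKM in 5/6Nx and 1112 FPKM in sham (0.35 ± 0.18). The more abundant of 2 loci of Corin, their activating protease, stood at 0.35 ± 0.24 and their receptors Npr1, Npr2 and Npr3 at 0.10, 0.07 and -0.01. The fetal actin gene Acta1 had 754 FPKM in 5/6Nx and 749 FPKM in sham, and the stress-induced Ankrd1 stood at -0.20 ± 0.19.

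Genes of fuel metabolism lay near sham. In fatty acid uptake and oxidation 6 of 23 genes lay above sham at a median of -0.11, and in glycolysis 9 of 20 at a median of -0.00, with 0 past a p of 0.05 in either list. Ppara, the nuclear receptor that drives fatty acid oxidation, stood at -0.07 ± 0.29, its coactivator Ppargc1a at -0.12, Pdk4, which blocks pyruvate entry, at its more abundant locus at -0.24 ± 0.19, and Cpt1b, the gate of mitochondrial fatty acid import, at 0.05 ± 0.17. Angptl4, an inhibitor of lipoprotein lipase, was apart from the rest with 6.25 FPKM in 5/6Nx and 3.44 FPKM in sham (0.86 ± 0.28). In adipocyte markers 7 of 10 genes lay below sham at a median of -0.24, with a sum of 3279 FPKM in 5/6Nx and 3163 FPKM in sham that Fabp4 dominated. Thrsp, a lipogenic gene, had 2.51 FPKM in 5/6Nx and 5.07 FPKM in sham (-1.01 ± 0.35).

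Hormone and stress pathways that kidney failure is known to engage gave few differences at week 2. Of 15 genes of the renin-angiotensin and corticosteroid list 6 lay above sham, and Sgk1, a kinase induced by mineralocorticoids and glucocorticoids, had the only p under 0.05 (37.0 FPKM in 5/6Nx, 28.2 FPKM in sham, 0.39 ± 0.18). Fkbp5 and Tsc22d3, both glucocorticoid targets, stood at -0.07 and -0.09. For FGF signalling, 6 of 11 genes lay above sham with 0 past a p of 0.05, and Fgf23, the phosphate hormone of bone, had 0.67 FPKM in 5/6Nx and 0.36 FPKM in sham, under the minimum set here. In the lists of endothelin and nitric oxide, angiogenesis and heat shock, 4 of 11, 9 of 18 and 9 of 18 genes lay above sham with 0 past a p of 0.05. For the antioxidant genes these counts were 10 of 25 and 0, with Hmox1 at 0.37 ± 0.20. The unfolded protein response had 14 of 20 genes above sham at a median of 0.13, and Creld2 alone had a p under 0.05 (0.48 ± 0.24). Potassium channels lay below sham in 12 of 16 cases, with Kcnj12 at -0.45 ± 0.22 and Kcna2 at -0.38 ± 0.19.

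The later weeks show how week 2 relates to genes that the authors called afterwards. Each week has its own sham group, so no control sample is shared. Of the loci called above sham at week 4 (25 of 14085 tested, 0.177%), 20 were measured here, and 17 of them lay above sham at week 2, 11 with a p under 0.05. At week 5 (54 of 13627, 0.396%) this held for 50 of 53, 29 with a p under 0.05, and at week 7 (196 of 13658, 1.44%) for 151 of 182, 45 with a p under 0.05. The background is 44.8% above sham and 1.86% with such a p. At each of these weeks 1 locus called above sham had a p under 0.05 below sham at week 2. These were Slfn3 at week 4 (-0.52 ± 0.23 at week 2), S100a9 at week 5 and Mt2A at week 7. Of the loci called below sham later, 15 of 21 at week 4, 16 of 18 at week 5 and 37 of 41 at week 7 lay below sham at week 2, with a p under 0.05 for 4, 2 and 7, beside 55.2% and 0.880%. Irs2, an adaptor of the insulin receptor (0.42 ± 0.19 at week 2), and Cebpb were called below sham at week 4 and had a p under 0.05 above sham at week 2. The calls below sham were 0.156%, 0.154% and 0.315% of the loci tested at weeks 4, 5 and 7. The week 2 medians were 0.50, 0.55 and 0.27 for loci called above sham at weeks 4, 5 and 7 and -0.16, -0.24 and -0.26 for those called below. Directions at week 7 follow the column names, since the deposited test statistic of that week had the opposite sign at all 13638 comparable loci, and they would turn if the names were exchanged. The loci called above sham would then be the other set, of which 4 of 41 lay above sham at week 2, and those called below would be the set of which 31 of 182 lay below. In that week 1 of the 5/6Nx libraries held 23.6 M reads, the lowest of the 16, and its part in the week 7 calls was not tested.

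**Figure D4:**
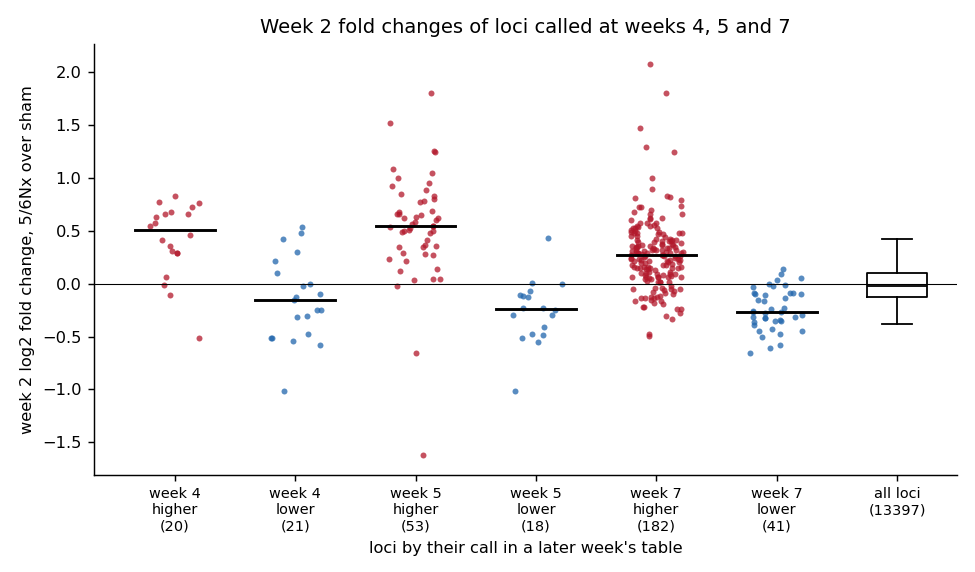
Week 2 log2 fold change (5/6Nx over sham) of loci that the authors called higher (red) or lower (blue) than sham at weeks 4, 5 and 7, with numbers of loci in parentheses and medians as bars. The box on the right gives the median, the middle 50% and the central 90% (whiskers) of all 13397 loci with a value above 0 in both groups, and most red points lie above 0.

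Among the matrix genes, Col3a1 had about the same fold change at every week, with 0.77 ± 0.19, 0.71 ± 0.17, 0.73 ± 0.23 and 0.93 ± 0.31 at weeks 2, 4, 5 and 7, and was called at week 4. Loxl1 had 1.00 ± 0.25, 0.51 ± 0.17 and 0.95 ± 0.23 at weeks 2, 4 and 5 and was called at weeks 5 and 7. Its week 2 value minus that of week 7 was -0.50 ± 0.60 (SE from the deposited test statistic), so week 7 lay higher. Postn had 0.54 ± 0.18 at week 2, against 3.49 ± 0.86 at week 7, and was called at weeks 4, 5 and 7. Nppa, called at weeks 5 and 7, had 0.35 ± 0.18, 0.44 ± 0.16, 1.08 ± 0.27 and 2.46 ± 0.61. Reg3b was farthest from sham at week 2, with 2.53 ± 0.62 beside 0.81 ± 0.23, 0.61 ± 0.23 and 1.09 ± 0.34 at the later weeks, and was called at none of them. Of the adipocyte list, Adipoq and Pck1 were called below sham at weeks 4 and 5. Adipoq stood at -0.25 ± 0.25 at week 2, against -1.46 ± 0.36 and -1.81 ± 0.45 at weeks 4 and 5, and Pck1 had 1.70 FPKM in both groups at week 2, against fold changes of -1.36 ± 0.34 and -4.32 ± 1.06. With SEs derived from the deposited p, the differences from week 2 passed the test of the difference for none of these 7 genes. Where a p was at its floor these SEs are upper bounds, so a difference that did not pass does not show that the weeks were alike. With SEs from the deposited test statistic, that of Reg3b passed against weeks 4 and 5 (adjusted p 0.000424 and 5.66e-05), that of Pck1 against week 5 (adjusted p 2.55e-09), and those of Postn and Nppa against week 7 (adjusted p 1.91e-07 and 1.37e-05).

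That test set the week 2 fold change against each later one, with a two-sided normal p from the derived SEs, adjusted by Benjamini-Hochberg over all loci tested in both weeks. It passed for 1 of 13788 loci against week 4 (0.00725%), 4 of 13130 against week 5 (0.0305%) and 0 of 12765 against week 7 (0%). With SEs from the deposited test statistic the counts were 63, 58 and 67, and among the 5 loci that passed here XLOC_006702 no longer did (adjusted p 0.119). Cebpb stood at 0.54 ± 0.20 at week 2 and was called below sham at week 4 (-0.83 ± 0.21), a difference of 1.37 ± 0.29 with an adjusted p of 0.0281. S100a9 stood at -1.62 ± 0.40 at week 2 and was called above sham at week 5 (1.71 ± 0.42), a difference of -3.33 ± 0.58 with an adjusted p of 0.000129. Its FPKM at weeks 2, 4, 5 and 7 were 14.8, 39.5, 18.4 and 23.5 in 5/6Nx, and 45.5, 33.5, 5.62 and 39.7 in sham. The sham values thus ranged more widely than the 5/6Nx values, with the caution that the sources used here do not say whether the weekly tables were scaled together. S100a8 had a difference of -3.60 ± 0.77 from week 5 (adjusted p 0.0128), with 13.6, 36.7 and 12.1 FPKM in 5/6Nx and 38.3, 26.8 and 2.81 FPKM in sham at weeks 2, 4 and 5. Week 2 minus week 7 was -1.41 for S100a8 and -0.86 for S100a9, and neither difference passed. XLOC_006702 differed from week 5 by -1.38 ± 0.29 (adjusted p 0.0128), and Lyc2, a lysozyme gene, by 2.98 ± 0.68 (adjusted p 0.0406), with 2.13 FPKM in 5/6Nx and 0.897 FPKM in sham at week 2. Against week 7 the smallest adjusted p was 0.0601 (646 loci, 5.06%, had an unadjusted p under 0.05), shared by genes such as Thbs1, Mt2A and Cxcl1 that lay below sham at week 2 and above it at week 7. With SEs from the test statistic these 3 passed (adjusted p 6.00e-06, 8.86e-21 and 0.00179). Mt2A, a metallothionein, had 51.5 FPKM in 5/6Nx and 72.5 FPKM in sham at week 2 (-0.49 ± 0.23), and was called above sham at week 7 (3.77 ± 0.93).

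**Figure D5:**
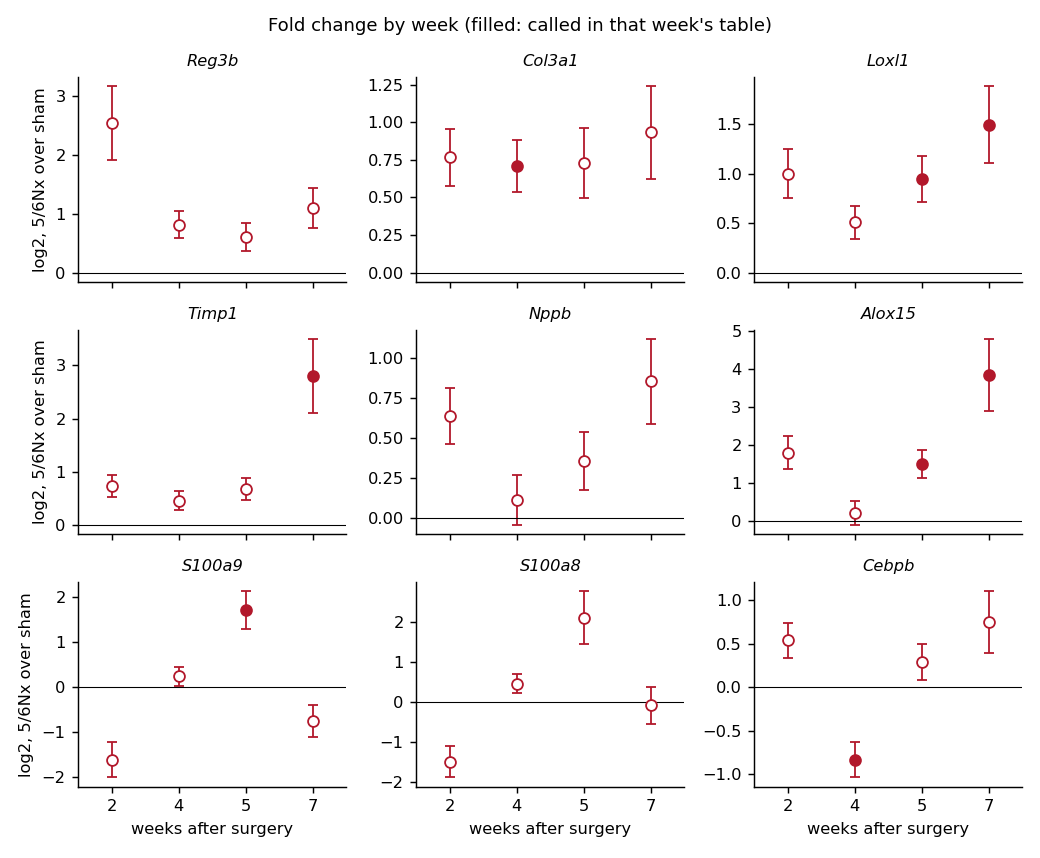
Log2 fold change (5/6Nx over sham) with its derived SE for 9 genes at weeks 2, 4, 5 and 7, each panel with its own vertical scale. Filled points were called in that week's table, open points were not, and S100a9 passes from -1.62 at week 2 to 1.71 at week 5 while Col3a1 stays between 0.71 and 0.93.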

How the data were processed

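Left ventricular RNA of 2 pooled libraries per group was compared between 5/6Nx and sham at week 2, with weeks 4, 5 and 7 for reference. Per the submitters' processing notes, the tools were TopHat2 2.0.10, Cufflinks 2.0.10, cutadapt and Cuffdiff, on the rat genome build rn5. The authors deposited 1 table per week with 1 abundance per group and locus, taken as FPKM, a test statistic (a score), a p-value and a q-value. A further deposited table gives the count of reads sequenced and the percent mapped per library. Positions of loci follow these tables (rn5).

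Log2 fold changes were computed from the FPKM, without a pseudocount, for loci with at least 1 FPKM in either group. SEs were derived as the size of the log2 fold change over the normal quantile of p, which at the smallest p makes an upper bound of 0.247 times the fold change. The planned limma or edgeR models needed a value per library, which these tables do not hold, so the test of the authors stood. P-values then measure the spread between pools. Repeated rows (314 at week 7) were joined, and 23 symbols turned into dates at week 2 were treated as unnamed.

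Of 806 genes in 50 lists (38 of function, 12 of cell types), 770 were matched, 9 through a RefSeq synonym, and 696 passed the minimum. Genes sharing a locus were counted once per list. Genes of a list not matched to a locus, or below the minimum, are not counted. The loci and lists were chosen with earlier results of these data known. The genes considered for naming are those at the smallest p, the 10 largest differences in each direction with p under 0.05, up to 4 genes per list with p under 0.05 (or the 1 with the smallest p), 13 fixed genes, lists of up to 15 genes in full, and 5 genes for each test between weeks, by adjusted p. Of these, the text prints a part, and 1 gene is not reported here. Other genes named beside their list were chosen after their values were seen. The procedure for differences between weeks was tested on simulated data, with errors drawn from the derived SEs. That check covers the computation only and cannot show whether the derived SEs are right. Promoters of RefSeq (GRCr8) matched 7552 of 10384 named loci by symbol. Python 3.11.15, pandas 2.3.3 and scipy 1.17.1 were used.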

Additional observations from a re-analysis of the deposited data

Results flagged for a closer look

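The week 2 fold change of 5 loci differed from that of a later week by the test of the difference. For Cebpb, week 2 minus week 4 was 1.37 on the log2 scale. For week 2 minus week 5, S100a9 gave -3.33, S100a8 gave -3.60, XLOC_006702 gave -1.38 and Lyc2 gave 2.98. With SEs from the deposited test statistic XLOC_006702 did not pass (adjusted p 0.119) and the other 4 did. The sham level of S100a9 was 45.5 FPKM at week 2 and 5.62 FPKM at week 5, and the part of the sham groups in this difference was not tested.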

How the results depend on the processing

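No paired analysis was possible because the tables hold 1 value per group and none per library, and for the same reason no replicate could be left out. The count of calls at week 2 was 0 by the authors' q, 14 adjusted over the loci of at least 1 FPKM, 11 over those of at least 5 FPKM and 18 at a q of 0.10. With a minimum of 5 FPKM, 160 loci above and 68 below sham had a p under 0.05, and 91 and 64 were at least 1.5-fold apart. With a pseudocount of 1 the counts at 1.5-fold were 152 and 119. The list median of cell division was -0.047, that of neutrophil and mast cell genes -1.49 and that of nerve and Schwann cell genes 0.33 with a minimum of 5 FPKM, and that of neutrophil and mast cell genes was -0.39 with a pseudocount of 1. SEs from the test statistic gave 63, 58 and 67 loci that differed between week 2 and weeks 4, 5 and 7. The cause of these shifts was not tested, apart from the smaller number of loci under a higher minimum. Of 200 pairs of list and setting, 7 changed the sign of a median, in 6 lists. Of 810 pairs of named gene and setting, 792 moved by less than the SE and 18 by more, all with a pseudocount of 1. Low transcripts limit precision, since loci of 1 to 5 FPKM had a median SE of 0.33.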
